A study of Homo sapiens with 18 samples.

Results

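Irradiated IMR90 cells were compared with proliferating IMR90 cells where both carried HDM201 (siremadlin), an inhibitor of MDM2. IMR90 cells are primary human fibroblasts of lung origin, wild type by their label, and the series measured their poly(A) RNA by sequencing. Libraries were assigned by their labels, and the comparison took 6 of the 18 libraries, namely 3 of irradiated cells with HDM201 (IR_HDM201) and 3 of proliferating cells with HDM201 (Prolif_HDM201). The remaining 12 libraries, 3 in each group, were irradiated or proliferating cells with the solvent DMSO (IR_DMSO and Prolif_DMSO) or with a further MDM2 inhibitor, RG7388 (idasanutlin; IR_RG7388 and Prolif_RG7388), given at another dose than HDM201. Irradiated cells received HDM201 from day 4 after irradiation, with changes of medium, so their first 4 days passed without it, and their RNA was taken on day 11, at the end of a treatment of 7 days. The labels give no separate schedule for the proliferating cells. They also do not say whether replicates were separate cultures or separate irradiations, so the p-values here measure only the spread between these samples, part of which may be technical.

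p53 is a transcription factor that cells switch on after DNA damage. MDM2 is the ubiquitin ligase that marks p53 for destruction, and the MDM2 gene is itself a p53 target, so the pair form a feedback loop that small molecules such as HDM201 open by occupying the p53 pocket of MDM2. Cells that keep damage after irradiation can enter senescence, a lasting exit from the cell cycle with loss of lamin B1 and with a secretory program of cytokines, proteases and growth factors, the senescence-associated secretory phenotype (SASP), which is driven in large part by NF-kB and accompanied by interferon signaling through cGAS, a sensor of cytosolic DNA.

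The 6 libraries held 21609198 to 62011698 counted reads, within a range of 21609198 to 66647700 over the series, and this depth limits the precision of genes near 1 CPM (read counts relative to the library total, the total corrected for composition by the TMM method). Prolif_HDM201 replicate 3 stood apart from its group, with a mean correlation of 0.977 to its own group and 32151 genes detected against 25733 and 27229 in the others, and leaving it out enlarged several counts given below. It was also the deepest of its group, with 45000479 reads against 29921648 and 28697137, and genes detected were not corrected for depth. IR_HDM201 replicate 1 was the other library of the 6 that stood apart, on the third principal component, which carried 5.05% of the variance. Of the DMSO libraries that enter each difference between the arms, IR_DMSO replicate 1 stood apart with 0.668% mitochondrial reads, against 3.13% and 3.15% in its group, and Prolif_DMSO replicate 1 on the third component and with 35812 genes detected. Prolif_DMSO replicate 1 was likewise the deepest of its group, with 66647700 reads against 25122199 and 38827506. The fibroblast label held, since 12 of 12 fibroblast markers averaged at least 1 CPM in both groups, with summed levels of 22570 to 23208 CPM in IR_HDM201 and 39683 to 55251 CPM in Prolif_HDM201. Leukocyte markers summed to 3.41 to 4.13 CPM in IR_HDM201 and 4.38 to 4.88 CPM in Prolif_HDM201, with 1 and 2 of 12 genes averaging at least 1 CPM and PTPRC, the pan-leukocyte surface phosphatase, below that level. Epithelial markers summed to 288 to 404 CPM in IR_HDM201 and 282 to 357 CPM in Prolif_HDM201, and endothelial markers to 123 to 126 CPM in IR_HDM201 and 88.0 to 99.3 CPM in Prolif_HDM201, with 4 epithelial and 3 or 4 endothelial genes of 12 at or above 1 CPM. Most of the endothelial sum was TEK alone (112 to 117 CPM in IR_HDM201 and 78.2 to 86.9 CPM in Prolif_HDM201). Most of the epithelial sum was KRT8, KRT18 and KRT19, so these sums do not measure cell type content.

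Irradiation changed 46.5% of the genes tested when MDM2 was blocked in both states. Of 18151 genes tested with the quasi-likelihood test of edgeR, 4124 (22.7%) were higher and 4312 (23.8%) were lower in IR_HDM201 than in Prolif_HDM201 at an adjusted p under 0.05. A change of at least 2-fold was met by 1541 (8.49%) of the genes higher and 1696 (9.34%) of the genes lower, and the libraries of the groups did not overlap for 8705 genes (48%). The balance of directions depended on scaling. Calls were 48.9% higher with TMM, where the median log2 fold change over all genes was 0.01, and 60.2% higher (5263 higher, 3479 lower) with library totals alone, where that median was 0.16. The same irradiation contrast within DMSO called 4777 genes (26.3%) higher and 4587 (25.3%) lower, and these arms share no library. Over 18151 genes the log2 fold changes of the arms had a Pearson r of 0.687, given as a description because genes are not independent replicates, and 92.9% of the genes called within HDM201 had the same sign within DMSO. Values given for single genes as x ± y below are a log2 fold change and its standard error (irradiated over proliferating), and the sizes after "rose by" and "fell by" are on the same log2 scale.

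**Figure D1:**
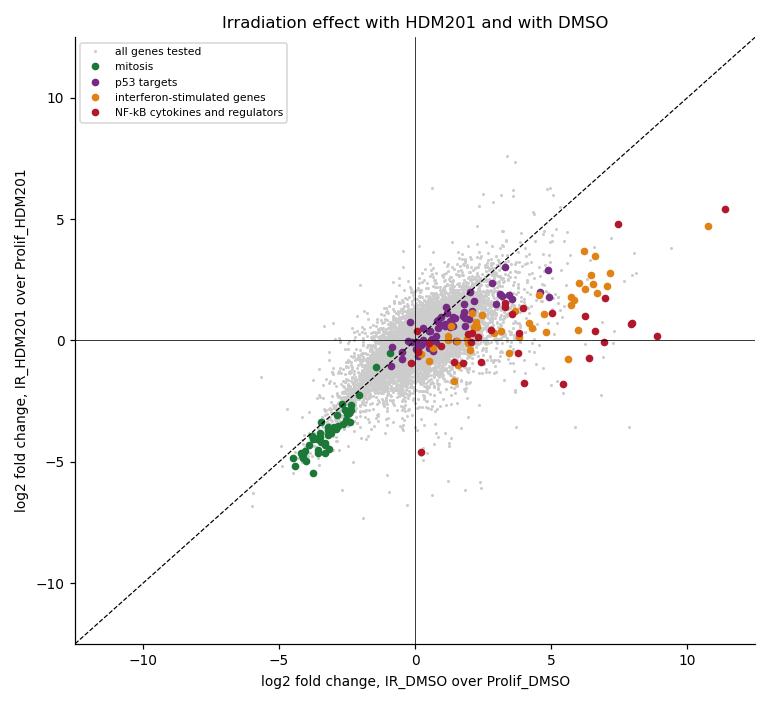
Each point is a gene, with the log2 fold change by irradiation within DMSO on the horizontal axis and within HDM201 on the vertical axis (both IR minus Prolif, 3 libraries a group). The dashed line marks equal effects. Mitosis genes (green) lie low on both axes and close to the line, and p53 targets (purple) lie to the right with many below the line. NF-kB genes (red) and interferon-stimulated genes (orange) reach far to the right on the DMSO axis (medians 3.57 and 3.75). On the HDM201 axis their medians are 0.27 and 0.59, with ranges of -4.62 to 5.43 and -1.68 to 4.74.

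Promoter sequences of 4 genes are shown because their groups mark the largest shared fall (mitosis) and the largest differences between the arms (NF-kB genes and interferon-stimulated genes) described below. Each window runs from 250 bases before to 50 bases after the RefSeq gene start on GRCh38.p14. It is printed 5′ to 3′ on the gene's strand, and capitals mark a motif. The RefSeq start can differ from the GENCODE start used for gene coordinates below, and the PLK1 window lies inside the GENCODE span of that gene. In PLK1, a mitotic kinase (chr16:23678639-23678938, plus strand), and CDC20, the activator of the anaphase-promoting complex (chr1:43358731-43359030, plus strand), the capitals are the cell cycle genes homology region, searched as TTTGAA or TTCGAA on both strands, with first bases at -29 in PLK1 and at -178 and -65 in CDC20. In CXCL8, the gene of interleukin-8 (chr4:73740319-73740618, plus strand), they are a kappa-B motif, GGNNTTTCC on either strand, with its first base at -91. In IFI6, an interferon-induced membrane protein (chr1:27672143-27672442, minus strand), they are 3 interferon-stimulated response elements, searched on either strand as a pair of GAAA runs with any 2 bases between them, starting at -156, -115 and -93.
PLK1: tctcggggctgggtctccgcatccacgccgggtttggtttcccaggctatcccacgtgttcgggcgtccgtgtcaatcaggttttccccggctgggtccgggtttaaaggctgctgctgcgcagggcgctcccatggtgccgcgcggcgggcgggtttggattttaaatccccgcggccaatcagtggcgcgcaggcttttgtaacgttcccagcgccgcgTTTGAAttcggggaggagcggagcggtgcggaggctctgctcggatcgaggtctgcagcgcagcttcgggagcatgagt
CDC20: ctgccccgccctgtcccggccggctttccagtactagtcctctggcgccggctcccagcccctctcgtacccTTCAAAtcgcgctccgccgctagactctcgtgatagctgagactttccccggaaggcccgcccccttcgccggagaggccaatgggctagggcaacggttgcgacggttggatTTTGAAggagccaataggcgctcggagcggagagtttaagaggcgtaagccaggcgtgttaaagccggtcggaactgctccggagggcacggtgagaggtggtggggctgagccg
CXCL8: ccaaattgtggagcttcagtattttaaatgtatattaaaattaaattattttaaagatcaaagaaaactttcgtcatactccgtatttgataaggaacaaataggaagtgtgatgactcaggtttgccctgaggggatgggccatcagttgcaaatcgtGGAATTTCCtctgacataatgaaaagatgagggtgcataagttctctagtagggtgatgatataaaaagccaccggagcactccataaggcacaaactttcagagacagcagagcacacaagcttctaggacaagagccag
IFI6: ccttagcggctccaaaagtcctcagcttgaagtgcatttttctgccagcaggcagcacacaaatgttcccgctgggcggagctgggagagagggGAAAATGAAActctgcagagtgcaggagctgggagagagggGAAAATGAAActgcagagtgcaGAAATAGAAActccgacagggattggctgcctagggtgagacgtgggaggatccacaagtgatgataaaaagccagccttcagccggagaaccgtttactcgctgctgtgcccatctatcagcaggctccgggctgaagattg
The homology region was found in 28 of 38 matched mitosis promoters (73.7%) and in 16.6% of all 27305 promoters of this length. A CCAAT box, CCAAT on either strand, was found in 29 of the 38 (76.3%) and in 35.7% of all promoters. The kappa-B motif was in 17 of 29 matched NF-kB promoters (58.6%) against 6.3% of all, and the response element in 21 of 35 matched promoters of interferon-stimulated genes (60.0%) against 3.6% of all. The kappa-B and response-element letters, and the genes printed, were chosen with the expression values known. A match is a run of letters and was not tested as a binding site.

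Genes of cell division fell together. Of 45 mitosis genes tested, 45 were lower and 0 were higher in IR_HDM201 (23.8% and 22.7% of all genes), with a median log2 fold change of -3.91 against 0.01 over all genes. In bulk RNA, fewer cells of a type and less RNA per cell cannot be told apart, here or in any later result. PLK1 (ENSG00000166851.15, chr16:23677656-23690367), which drives entry into and passage through mitosis, had 7.43, 5.58 and 3.95 CPM in IR_HDM201 libraries against 233, 232 and 173 CPM in Prolif_HDM201 libraries. Each irradiated library lay far below each proliferating one, and Prolif_HDM201 replicate 3 was the lowest of the proliferating libraries. Its log2 fold change was -5.19 ± 0.17 (adjusted p = 1.63e-16), a 36.5-fold lower level. CDC20 had 8.30, 6.46 and 4.71 CPM in IR_HDM201 libraries and 223, 224 and 171 CPM in Prolif_HDM201 libraries, with replicate 3 again the lowest of the proliferating libraries and a log2 fold change of -4.96 ± 0.17. KIF20A, a kinesin of the spindle midzone and cytokinesis, averaged 3.85 ± 1.21 CPM in IR_HDM201 and 176 ± 15 CPM in Prolif_HDM201 (SD, n = 3 each). BIRC5, which encodes survivin of the chromosomal passenger complex, averaged 8.10 ± 0.830 CPM in IR_HDM201 and 183 ± 16.2 CPM in Prolif_HDM201. MKI67, the proliferation antigen Ki-67, had 18.5, 10.1 and 10.3 CPM in IR_HDM201 libraries and 271, 253 and 508 CPM in Prolif_HDM201 libraries, with Prolif_HDM201 replicate 3 the highest and a log2 fold change of -4.70 ± 0.41.

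The fall of the mitosis genes was in part deeper with HDM201 than with DMSO. Within DMSO, 45 of the 45 genes also fell, where 25.3% of all genes were lower, with a median of -3.30. The difference between the effects was called lower with HDM201 for 13 of 45 genes and higher for 0, where 5.67% and 2.97% of all genes were called. Leaving out both HDM201 libraries that stood apart raised the 13 to 21 and the 0 to 2. Over all genes it raised the lower calls from 1029 to 1391 and the higher calls from 539 to 1142. KIF20A fell by 5.45 ± 0.18 within HDM201 and fell by 3.74 ± 0.16 within DMSO (difference -1.71 ± 0.22, adjusted p = 1.28e-05). BIRC5 fell by 4.49 ± 0.14 within HDM201 and fell by 3.18 ± 0.13 within DMSO (difference -1.31 ± 0.17, adjusted p = 1.55e-05), and TROAP, a spindle assembly protein, fell by 4.77 ± 0.15 and fell by 3.80 ± 0.13 (difference -0.97 ± 0.19). The proliferating arms were close for KIF20A, at 176 ± 15 CPM in Prolif_HDM201 and 208 ± 7.91 CPM in Prolif_DMSO, while IR_HDM201 held 3.85 ± 1.21 CPM and IR_DMSO 15.6 ± 2.72 CPM. Cyclin A2 (CCNA2), the cyclin of S phase and G2, fell by 3.86 ± 0.14 within HDM201 and fell by 3.44 ± 0.13 within DMSO, and its difference was not called (adjusted p = 0.161, 95% interval -0.79 to -0.05).

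DNA replication genes and E2F targets followed the same direction, with 43 of 45 (95.6%) lower and 1 (2.22%) higher (23.8% and 22.7% of all genes, median -2.15). TK1, the S-phase thymidine kinase, averaged 13.3 ± 1.84 CPM in IR_HDM201 and 166 ± 20.3 CPM in Prolif_HDM201 (log2 fold change -3.63 ± 0.13). RRM2, the S-phase subunit of ribonucleotide reductase, averaged 36.3 ± 8.76 CPM in IR_HDM201 and 369 ± 35.6 CPM in Prolif_HDM201 (log2 fold change -3.34 ± 0.14). The member that was higher was CCNE1, cyclin E1 of the G1/S transition, at 9.37 ± 0.804 CPM in IR_HDM201 and 7.27 ± 0.627 CPM in Prolif_HDM201 (log2 fold change 0.38 ± 0.15, adjusted p = 0.0415). That call was lost when IR_HDM201 replicate 1 (log2 fold change 0.28, adjusted p = 0.19) or 3 (0.37, 0.088), or Prolif_HDM201 replicate 2 (0.38, 0.083) or 3 (0.28, 0.15), was left out.

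More DNA repair genes fell than rose. Of 35 genes of homologous recombination and the Fanconi anemia pathway, 29 were lower and 1, ATM, was higher in IR_HDM201 (median -1.44). These shares of 82.9% and 2.86% stand beside 23.8% and 22.7% of all genes. FANCD2, a monoubiquitinated protein of the Fanconi pathway, averaged 2.97 ± 0.257 CPM in IR_HDM201 and 34.1 ± 2.92 CPM in Prolif_HDM201, and RAD54L, a motor protein of strand exchange, 1.53 ± 0.486 CPM and 19.8 ± 2.13 CPM in the same order. EXO1, a nuclease of end resection, had a log2 fold change of -2.96 ± 0.14. ATM, the kinase that starts the break response, averaged 39.3 ± 5.99 CPM in IR_HDM201 and 19.7 ± 10.8 CPM in Prolif_HDM201, where replicate 3 was the highest (log2 fold change 0.98 ± 0.26). Of 22 genes of end joining and break signaling, 11 (50%) were lower and 2 (9.09%) were higher (median -0.45). PARP1, which senses strand breaks, fell by 1.51 ± 0.09, and PRKDC, the catalytic subunit of DNA-PK, fell by 1.12 ± 0.11. The 2 members that rose were ligase partners of end joining. XRCC4, the scaffold of DNA ligase IV, had 24.6, 26.9 and 25.1 CPM in IR_HDM201 libraries against 8.79, 11.3 and 15 CPM in Prolif_HDM201 libraries, with no overlap (log2 fold change 1.11 ± 0.15, adjusted p = 2.44e-06). Within DMSO it was 11.0 ± 0.725 CPM in IR_DMSO and 12 ± 1.23 CPM in Prolif_DMSO (-0.14 ± 0.15, not called), and the difference was 1.25 ± 0.22 (adjusted p = 3.77e-04). LIG4, the ligase itself, rose by 0.93 ± 0.16 within HDM201 and by 0.63 ± 0.16 within DMSO.

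Nuclear structure genes fell as well. Of 17 genes of lamins and HMG chromatin proteins, 15 (88.2%) were lower and 1 (5.88%) was higher (23.8% and 22.7% of all genes, median -2.11). LMNB1, lamin B1, whose loss is used as a senescence marker (chr5:126776623-126837020), had 5.29, 4.17 and 4.31 CPM in IR_HDM201 libraries against 114, 115 and 105 CPM in Prolif_HDM201 libraries. The groups were well separated and tight, and the log2 fold change was -4.58 ± 0.16 within HDM201 and -4.40 ± 0.15 within DMSO, with a difference of -0.18 (95% interval -0.59 to 0.24, not called). LMNB2, lamin B2, fell by 2.28 ± 0.10, and HMGB2, a chromatin-bending protein, fell by 3.82 ± 0.13. The member that rose was HMGA2, a chromatin protein of mesenchymal and senescent cells, at 813 ± 88.2 CPM in IR_HDM201 and 434 ± 49.1 CPM in Prolif_HDM201 (log2 fold change 0.91 ± 0.14). It was not called within DMSO (-0.08 ± 0.14), and the difference was called (0.99 ± 0.20, adjusted p = 0.00231).

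Cyclins and their inhibitors did not move as one. Of 17 genes, 10 (58.8%) were lower and 4 (23.5%) were higher (23.8% and 22.7% of all genes, median -0.58). CCND2, cyclin D2 (chr12:4269771-4305353), had 246, 245 and 223 CPM in IR_HDM201 libraries against 11.3, 12.2 and 10.3 CPM in Prolif_HDM201 libraries, a log2 fold change of 4.41 ± 0.15 (adjusted p = 2.17e-16) with no overlap, beside 4.72 ± 0.16 within DMSO. CCND1, cyclin D1, averaged 4137 ± 461 CPM in IR_HDM201 and 1332 ± 171 CPM in Prolif_HDM201. CDK6, a kinase partner of the D-type cyclins, rose by 1.36 ± 0.34, with 77.6 ± 43.4 CPM in Prolif_HDM201, where replicate 3 was the highest. CDK2, the kinase of S phase, fell by 1.70 ± 0.10 within HDM201 and fell by 0.92 ± 0.09 within DMSO (difference -0.78 ± 0.13). Of the inhibitors, CDKN2C (p18) fell by 4.40 ± 0.19. CDKN2A, the p16 and ARF gene, averaged 8.32 ± 1.24 CPM in IR_HDM201 and 10.2 ± 1.45 CPM in Prolif_HDM201 with overlapping libraries and was not called (-0.29 ± 0.15, adjusted p = 0.122), although it was called without Prolif_HDM201 replicate 3 (-0.41, adjusted p = 0.033). CDKN2B (p15) was lower within HDM201 (-0.58 ± 0.15) and higher within DMSO (0.36 ± 0.15), and the difference was -0.94 ± 0.21 (adjusted p = 0.00503).

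**Figure D2:**
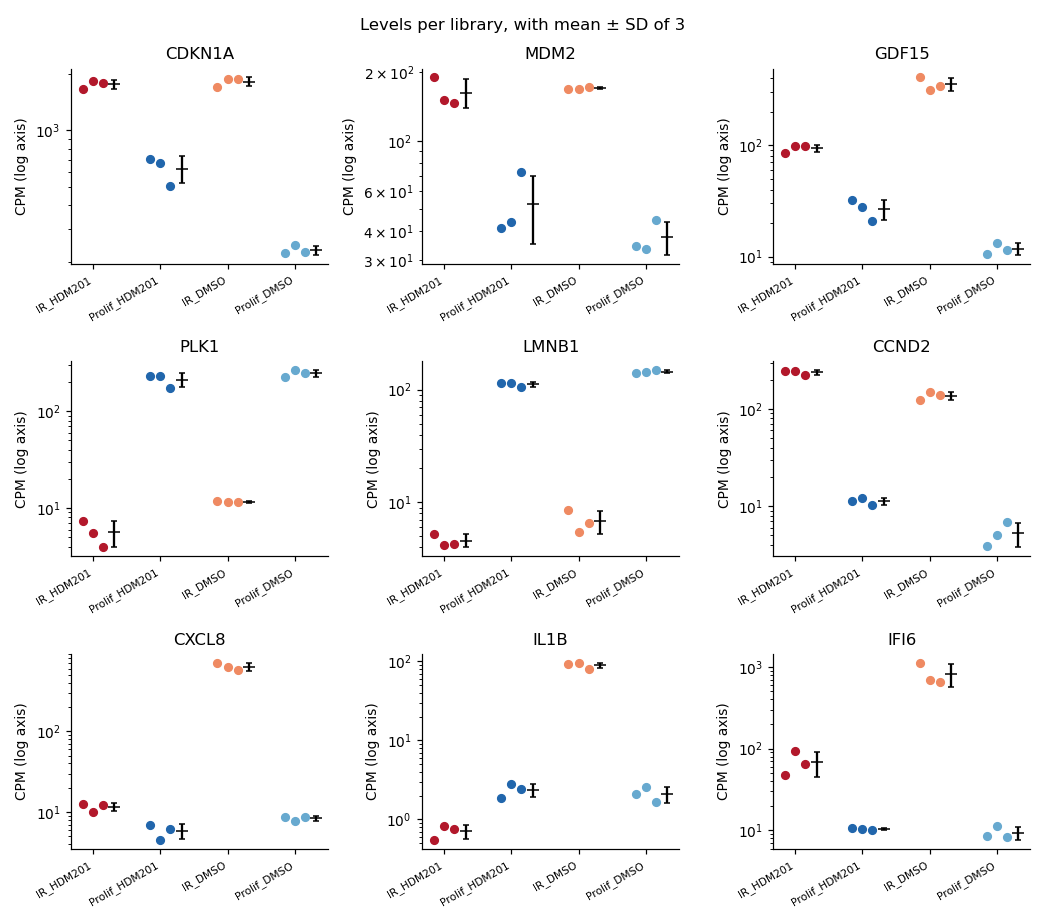
Levels of 9 genes in CPM on a log axis, with a point for each library and the mean ± SD (n = 3) of IR_HDM201, Prolif_HDM201, IR_DMSO and Prolif_DMSO from left to right. CDKN1A is as high in IR_HDM201 as in IR_DMSO but higher in Prolif_HDM201 than in Prolif_DMSO, PLK1 and LMNB1 are low in both irradiated groups, CCND2 is high in both, and CXCL8, IL1B and IFI6 are highest in IR_DMSO.

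More p53 targets rose than fell on irradiation, with HDM201 present on both sides. Of 61 targets tested, 36 (59.0%) were higher and 7 (11.5%) were lower in IR_HDM201 (22.7% and 23.8% of all genes, median 0.59). Within DMSO 46 were higher and 3 lower (26.3% and 25.3% of all genes, median 0.95). CDKN1A, the p21 inhibitor of cyclin-dependent kinases (ENSG00000124762.13, chr6:36676460-36687337), had 1656, 1839.9 and 1795 CPM in IR_HDM201 libraries against 701, 673 and 508 CPM in Prolif_HDM201 libraries. The groups did not overlap, and the log2 fold change was 1.49 ± 0.11 (adjusted p = 1.10e-10). In DMSO the levels were 1708, 1868 and 1878 CPM in IR_DMSO libraries and 222, 246 and 225 CPM in Prolif_DMSO libraries, a log2 fold change of 2.98 ± 0.11. The effects differed by -1.48 ± 0.15 (adjusted p = 4.63e-07), with mean levels of 1764 ± 96.0 CPM in IR_HDM201 and 1818 ± 95.1 CPM in IR_DMSO, and with proliferating cells that held more with HDM201 than with DMSO (log2 fold change 1.44, adjusted p = 8.16e-08).

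MDM2 itself had 189.8, 150.4 and 147 CPM in IR_HDM201 libraries against 41.2, 44.1 and 73.0 CPM in Prolif_HDM201 libraries, without overlap, although Prolif_HDM201 replicate 3 was the highest of the proliferating libraries. It rose by 1.62 ± 0.18 within HDM201 and by 2.17 ± 0.18 within DMSO, and the difference of -0.55 was not called (adjusted p = 0.195, 95% interval -1.07 to -0.03). GDF15, a stress-induced cytokine of the TGF-beta superfamily, had 84.9, 97.7 and 98.3 CPM in IR_HDM201 libraries against 32.1, 27.6 and 20.8 CPM in Prolif_HDM201 libraries, a log2 fold change of 1.81 ± 0.13 (adjusted p = 1.33e-10) with no overlap. Within DMSO it had 406, 314 and 338 CPM in IR_DMSO libraries and 10.6, 13.3 and 11.4 CPM in Prolif_DMSO libraries, so that with HDM201 the irradiated level was lower and the proliferating level higher, and the effects differed by -3.11 ± 0.19 (adjusted p = 9.07e-11). BTG2, an antiproliferative cofactor, rose by 1.73 ± 0.12 within HDM201 and by 3.56 ± 0.13 within DMSO. RRM2B, the p53-induced subunit of ribonucleotide reductase, rose by 2.36 ± 0.19 and 2.82 ± 0.20, and ZMAT3, an RNA-binding p53 target, by 1.98 ± 0.25 and 2.02 ± 0.25, in the same order of arms. In both genes the difference was not called (adjusted p = 0.333 and 0.97). TNFRSF10C, a decoy receptor for the death ligand TRAIL, rose by 2.89 ± 0.17 within HDM201 and 4.87 ± 0.20 within DMSO, and TRIM22, an antiviral ubiquitin ligase, by 1.93 ± 0.10 and 3.11 ± 0.10.

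Across the 61 targets the difference between the arms was called lower with HDM201 for 27 and higher for 1 (5.67% and 2.97% of all genes). Without Prolif_HDM201 replicate 3 these counts were 33 and 3, while over all genes the lower calls rose from 1029 to 1535 and the higher calls from 539 to 1408. In proliferating cells HDM201 against DMSO called 12 of the 61 higher and 0 lower, where 0.545% of all genes were called higher and 0.154% lower. In irradiated cells it called 4 higher and 15 lower, where 9.96% and 11.3% of all genes were called. These comparisons share libraries with the irradiation contrasts, so the counts describe the same data from another side. The exception that rose more with HDM201 was TNFRSF10D, a further TRAIL decoy receptor, with 577, 528 and 536 CPM in IR_HDM201 libraries against 363, 342 and 269 CPM in Prolif_HDM201 libraries (0.75 ± 0.10). It had 176 ± 11.7 CPM in IR_DMSO and 198 ± 11.3 CPM in Prolif_DMSO, and the difference was 0.92 ± 0.15 (adjusted p = 1.39e-04). XPC, the damage sensor of nucleotide excision repair, had 38.7, 38.9 and 41.9 CPM in IR_HDM201 libraries and 41.5, 39.2 and 38.1 CPM in Prolif_HDM201 libraries. Those groups overlapped (0.01 ± 0.09, adjusted p = 0.947), whereas within DMSO it rose by 0.67 ± 0.09, and the difference was called (-0.66 ± 0.13, adjusted p = 0.00153). PLK2, a stress-responsive polo-like kinase, was likewise not called within HDM201 (-0.02 ± 0.11, adjusted p = 0.886) and rose by 1.5 ± 0.11 within DMSO. Targets that fell included SESN2, a stress sensor upstream of mTORC1 (-0.75 ± 0.12 within HDM201), RAP2B, a small GTPase (-1.04 ± 0.10), and CD82, a tetraspanin (-0.63 ± 0.11).

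**Figure D3:**
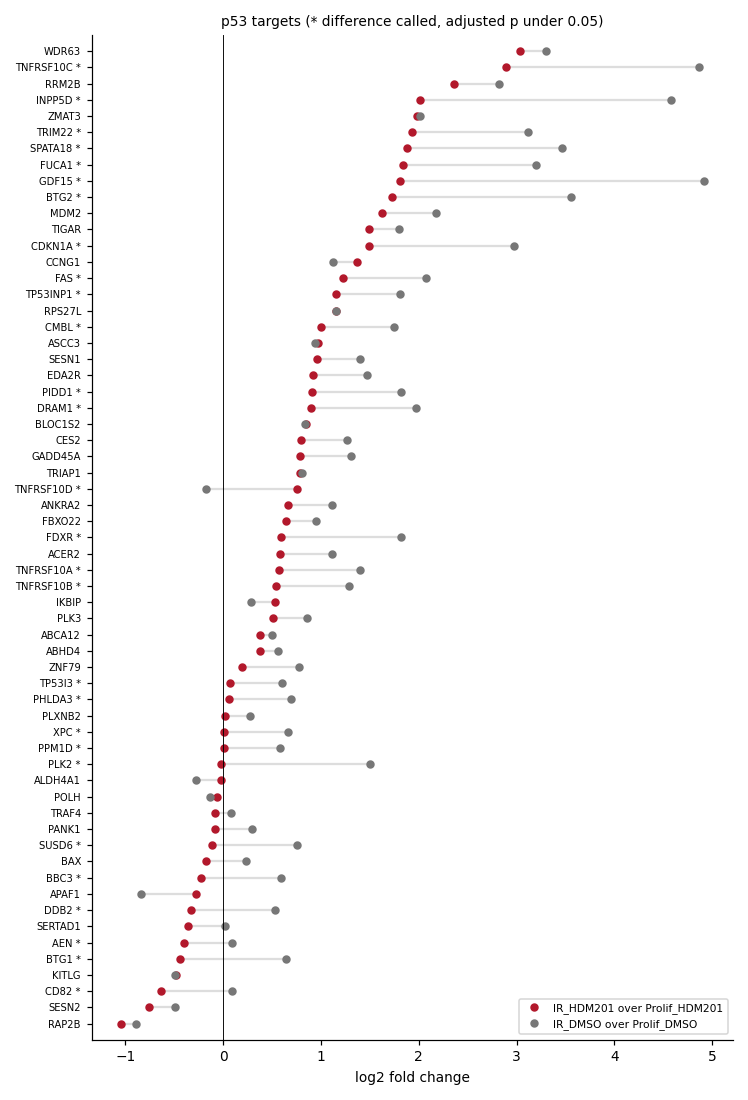
Log2 fold change by irradiation for each of the 61 p53 targets tested, within HDM201 (red) and within DMSO (gray), joined by a line. An asterisk marks a called difference between the arms, and most marked targets, such as GDF15, CDKN1A and PLK2, lie further right within DMSO, with TNFRSF10D further right within HDM201.

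NF-kB cytokines and regulators showed little shared direction within HDM201. Of 33 genes tested, 9 (27.3%) were higher and 9 (27.3%) were lower in IR_HDM201 (median 0.27), shares near the 22.7% and 23.8% of all genes. With library totals alone 12 were higher and 9 lower, where 5263 of all genes were higher and 3479 lower. Within DMSO 29 were higher and 0 were lower (26.3% and 25.3% of all genes, median 3.57). The difference was called lower with HDM201 for 27 of the 33 and higher for 0 (5.67% and 2.97% of all genes). CXCL8 (chr4:73740519-73743716), a neutrophil chemokine whose promoter is printed above, had 12.7, 10.1 and 12.3 CPM in IR_HDM201 libraries against 6.88, 4.49 and 6.14 CPM in Prolif_HDM201 libraries. These did not overlap, and the rise was 1.00 ± 0.15 (adjusted p = 6.92e-06). Within DMSO it had 709, 622 and 574 CPM in IR_DMSO libraries and 8.69, 7.72 and 8.61 CPM in Prolif_DMSO libraries, and the effects differed by -5.24 ± 0.21 (adjusted p = 1.33e-13). HDM201 against DMSO was -5.76 (log2) in irradiated cells and -0.52 in proliferating cells, the second not called (adjusted p = 0.134).

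IL1B, the secreted upstream cytokine of this network, had 0.547, 0.835 and 0.755 CPM in IR_HDM201 libraries against 1.87, 2.78 and 2.39 CPM in Prolif_HDM201 libraries. Its irradiated libraries were all lower, with a log2 fold change of -1.81 ± 0.27 (adjusted p = 8.65e-06), whereas it rose by 5.43 ± 0.22 within DMSO to 89.0 ± 7.18 CPM. IL1A, its membrane-linked relative, averaged 0.339 ± 0.268 CPM in IR_HDM201 and 0.816 ± 0.249 CPM in Prolif_HDM201 (-1.73 ± 0.53, adjusted p = 0.0117), at levels of few reads, and the call was lost without IR_HDM201 replicate 1 (-0.80, adjusted p = 0.12) or Prolif_HDM201 replicate 3 (-1.48, 0.051), and the value was -0.50 (0.39) without both and -0.20 (0.179) with limma on log2(FPKM + 1). IL6, which signals through gp130, had 5.58, 6.94 and 6.0 CPM in IR_HDM201 libraries against 8.91, 10.2 and 7.03 CPM in Prolif_HDM201 libraries. The groups lay close, and the call (-0.50 ± 0.15, adjusted p = 0.0109) was lost without IR_HDM201 replicate 1 (-0.43, adjusted p = 0.057) or Prolif_HDM201 replicate 2 (-0.37, 0.089), and the value was -0.09 (0.645) with limma on log2(FPKM + 1). Within DMSO IL6 rose by 3.78 ± 0.16. CXCL1, a chemokine close to CXCL8, averaged 0.324 ± 0.155 CPM in IR_HDM201 and 0.329 ± 0.168 CPM in Prolif_HDM201 and was not called (0.17 ± 0.49), with 148 ± 19.8 CPM in IR_DMSO and 0.303 ± 0.217 CPM in Prolif_DMSO.

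Other NF-kB genes moved to both sides. TNFAIP6, a hyaluronan-binding anti-inflammatory protein, fell with HDM201, at 0.152, 0.308 and 0.311 CPM in IR_HDM201 libraries against 4.60, 5.07 and 6.86 CPM in Prolif_HDM201 libraries (-4.62 ± 0.31, adjusted p = 2.20e-11). Its libraries did not overlap, and within DMSO it was not called (0.22 ± 0.19). TNFAIP3, the A20 brake on NF-kB, fell by 0.89 ± 0.13, and NFKB1, the p105 and p50 subunit, fell by 0.93 ± 0.11. CCL2, a monocyte chemokine, rose by 1.53 ± 0.15 within HDM201 and 3.31 ± 0.16 within DMSO. SOD2, mitochondrial superoxide dismutase, rose by 1.32 ± 0.11 within HDM201 and 3.97 ± 0.12 within DMSO, and VCAM1, an adhesion molecule for leukocytes, by 1.37 ± 0.15 and 3.30 ± 0.15. C3, the central complement component, had 22.3, 21.7 and 18.3 CPM in IR_HDM201 libraries against 0.973, 0.609 and 0.697 CPM in Prolif_HDM201 libraries, without overlap (4.79 ± 0.21, adjusted p = 2.93e-14). It reached 249 ± 53.1 CPM in IR_DMSO, against 1.43 ± 0.0717 CPM in Prolif_DMSO (7.45 ± 0.21, difference -2.66 ± 0.31).

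Proteases and growth factors of the SASP divided, with 17 of 40 (42.5%) higher and 14 (35%) lower within HDM201 (22.7% and 23.8% of all genes, median 0.12). Within DMSO 24 were higher and 6 lower (26.3% and 25.3% of all genes, median 0.83). The difference was called lower with HDM201 for 17 and higher for 1 (5.67% and 2.97% of all genes). WNT16, a WNT ligand secreted by damaged fibroblasts, had 63.7, 52.4 and 54.8 CPM in IR_HDM201 libraries against 6.88, 5.87 and 8.19 CPM in Prolif_HDM201 libraries, a log2 fold change of 3.02 ± 0.12 (adjusted p = 1.82e-15) with no overlap, beside 4.56 ± 0.13 within DMSO. Mean levels were 57.0 ± 5.98 CPM in IR_HDM201 and 67.7 ± 1.24 CPM in IR_DMSO, and 6.98 ± 1.16 CPM in Prolif_HDM201 and 2.86 ± 0.0915 CPM in Prolif_DMSO. IGFBP7, an insulin-like growth factor binding protein, rose by 1.36 ± 0.12 within HDM201 and 0.88 ± 0.11 within DMSO. SERPINB2, the plasminogen activator inhibitor PAI-2, rose by 1.45 ± 0.12 within HDM201 and 2.73 ± 0.12 within DMSO. The stromelysins MMP10 and MMP3 fell by 2.92 ± 0.23 and fell by 0.67 ± 0.18 within HDM201, where within DMSO MMP10 was at -0.37 ± 0.19 without a call and MMP3 rose by 1.98 ± 0.18. The gelatinase MMP2 fell by 1.13 ± 0.11 within HDM201 and fell by 1.19 ± 0.11 within DMSO, and its activator MMP14 fell by 1.17 ± 0.10 within HDM201 and fell by 1.22 ± 0.10 within DMSO.

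Interferon-stimulated genes rose less with HDM201 than with DMSO. Of 42 genes tested, 19 (45.2%) were higher and 5 (11.9%) were lower in IR_HDM201 (22.7% and 23.8% of all genes, median 0.59). Within DMSO 41 were higher and 0 were lower (26.3% and 25.3% of all genes, median 3.75). The difference was called lower with HDM201 for 37 of the 42 and higher for 0 (5.67% and 2.97% of all genes). IFI6 had 47.3, 92.7 and 64.9 CPM in IR_HDM201 libraries against 10.6, 10.5 and 10.2 CPM in Prolif_HDM201 libraries. Replicate 2 was the highest and replicate 1 the lowest of the irradiated libraries, all of them above the proliferating ones, and the log2 fold change was 2.71 ± 0.30 (adjusted p = 1.76e-06). Within DMSO it had 1126, 690.3 and 655 CPM in IR_DMSO libraries and 8.49, 11.4 and 8.23 CPM in Prolif_DMSO libraries (6.47 ± 0.34, difference -3.77 ± 0.41, adjusted p = 1.62e-05). ISG15, a ubiquitin-like modifier, followed the same order with 39.9, 86.9 and 65.5 CPM in IR_HDM201 libraries against 18.7, 18.2 and 15.3 CPM in Prolif_HDM201 libraries (1.88 ± 0.28). CXCL10, a T-cell chemokine, rose by 1.94 ± 0.25 within HDM201 and 6.67 ± 0.21 within DMSO. OAS3, a sensor of double-stranded RNA, went the other way, at 6.28, 6.59 and 6.97 CPM in IR_HDM201 libraries against 23.1, 23.6 and 16.8 CPM in Prolif_HDM201 libraries. It fell by 1.68 ± 0.20 (adjusted p = 6.09e-07) without overlap, while it rose by 1.44 ± 0.18 within DMSO.

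Cytosolic DNA-sensing genes mostly fell, and the direction of antigen-presentation genes depended on scaling. Of 12 genes of cytosolic DNA sensing, 8 (66.7%) were lower and 1 (8.33%) was higher (23.8% and 22.7% of all genes, median -0.59). CGAS, the sensor that makes the messenger cGAMP, averaged 4.14 ± 1.28 CPM in IR_HDM201 and 9.82 ± 0.987 CPM in Prolif_HDM201 (-1.25 ± 0.17, beside -1.06 ± 0.16 within DMSO), and ENPP1, which degrades cGAMP outside cells, fell by 1.86 ± 0.15. Of 15 genes of MHC class I presentation, 7 (46.7%) were lower and 3 (20%) were higher (median -0.27). That balance turned to 4 lower and 5 higher with library totals alone, where 3479 of all genes were lower and 5263 higher. Within DMSO 12 were higher and 1 was lower (26.3% and 25.3% of all genes, median 0.59). HLA-B, a heavy chain of class I molecules, fell by 0.64 ± 0.12 within HDM201, and since HLA genes are similar and polymorphic, reads may be shared among them and this value is uncertain. B2M, the light chain, rose by 0.59 ± 0.10 within HDM201 and 0.98 ± 0.10 within DMSO, and IRF1, an interferon regulatory factor, fell by 0.83 ± 0.13 within HDM201 and rose by 0.51 ± 0.13 within DMSO (difference -1.34 ± 0.18).

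Matrix genes fell. Of 35 genes of collagen and matrix, 30 (85.7%) were lower and 2 (5.71%) were higher in IR_HDM201 (23.8% and 22.7% of all genes, median -1.43). Within DMSO 32 were lower and 0 higher (25.3% and 26.3% of all genes). The difference was called higher with HDM201 for 6 and lower for 2 (2.97% and 5.67% of all genes). COL1A1, the alpha 1 chain of type I collagen, had 7601, 7128 and 7425 CPM in IR_HDM201 libraries against 25688, 23274 and 17026 CPM in Prolif_HDM201 libraries, a log2 fold change of -1.57 ± 0.17 (adjusted p = 1.76e-07) without overlap. COL5A3, a chain of type V collagen, averaged 6.12 ± 2.01 CPM in IR_HDM201 and 227 ± 40.2 CPM in Prolif_HDM201 (-5.17 ± 0.19). ELN, elastin, fell by 2.94 ± 0.14 within HDM201 and fell by 3.90 ± 0.15 within DMSO, a difference of 0.96 ± 0.19 (adjusted p = 0.0019). The 2 members that rose were LOX, the enzyme that crosslinks collagen and elastin, and DCN, the proteoglycan decorin. LOX averaged 2463 ± 418 CPM in IR_HDM201 and 1468 ± 198 CPM in Prolif_HDM201 (0.75 ± 0.13) and was not called within DMSO (-0.16 ± 0.13). DCN averaged 1558 ± 149.8 CPM in IR_HDM201 and 1147 ± 23.3 CPM in Prolif_HDM201 (0.44 ± 0.10) and fell by 0.35 ± 0.10 within DMSO. The sum of the fibroblast markers, which include COL1A1 and DCN, was lower in IR_HDM201 too, as given above, and its part in these results was not tested.

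Contractile genes and TGF-beta response genes were mixed, with 12 of 26 (46.2%) lower and 6 (23.1%) higher within HDM201, where 23.8% and 22.7% of all genes were (median -0.22). With library totals alone 11 were lower and 9 higher, where 3479 of all genes were lower and 5263 higher. With TMM the arms differed in both directions, with 9 genes called higher and 5 called lower with HDM201 (2.97% and 5.67% of all genes). ACTA2, smooth muscle actin, had 692, 866 and 816 CPM in IR_HDM201 libraries against 1299, 1283 and 948 CPM in Prolif_HDM201 libraries, without overlap. Its log2 fold change was -0.57 ± 0.12, and -1.97 ± 0.13 within DMSO, where IR_DMSO held 406 ± 56.0 CPM and Prolif_DMSO 1595 ± 107 CPM, and the difference was 1.40 ± 0.18 (adjusted p = 7.87e-06). TAGLN, an actin-binding protein of smooth muscle, was not called within HDM201 (0.21 ± 0.12; 0.37 and called with library totals alone) and fell by 0.96 ± 0.12 within DMSO. ID1 and ID3, inhibitors of basic helix-loop-helix factors downstream of BMP and TGF-beta signals, fell by 2.01 ± 0.13 and fell by 1.51 ± 0.14 within HDM201. Within DMSO ID1 fell by 0.51 ± 0.12, and ID3 was at -0.11 ± 0.14 without a call.

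Genes of the BCL2 family split, with 7 of 12 (58.3%) lower and 5 (41.7%) higher, where 23.8% and 22.7% of all genes were. These counts mix antiapoptotic members with proapoptotic ones such as BMF and BID, and only antiapoptotic members are described here. BCL2, the founding antiapoptotic member, averaged 0.335 ± 0.261 CPM in IR_HDM201 and 4.01 ± 0.209 CPM in Prolif_HDM201 (-3.30 ± 0.34, at few reads in irradiated cells). Its antiapoptotic relatives moved to both sides. BCL2L1 (BCL-XL) and BCL2L2 (BCL-w) rose by 0.62 ± 0.11 and 0.78 ± 0.10 within HDM201, with 0.69 ± 0.11 and 0.74 ± 0.10 within DMSO. MCL1 fell by 0.54 ± 0.10 within HDM201. BCL2A1 had 0, 0 and 0.133 CPM in IR_HDM201 libraries against 0.374, 0.152 and 0.544 CPM in Prolif_HDM201 libraries, a few reads at most in irradiated cells, and 3.32, 2.39 and 2.86 CPM in IR_DMSO libraries against 0.185, 0.259 and 0.219 CPM in Prolif_DMSO libraries. Its log2 fold change of -3.55 ± 0.77 within HDM201 (adjusted p = 6.11e-04) was -1.96 and not called (adjusted p = 0.057) without both HDM201 libraries that stood apart, and -6.85 without IR_HDM201 replicate 3, where the remaining irradiated libraries were at 0, beside 3.72 ± 0.49 within DMSO, and the difference was -7.26 ± 0.89 (adjusted p = 4.99e-06).

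More lysosome and autophagy genes rose than fell, with 14 of 35 (40%) higher and 4 (11.4%) lower (22.7% and 23.8% of all genes, median 0.16). Without Prolif_HDM201 replicate 3 these counts were 11 and 8, where 4327 of all genes were higher and 4827 lower. Within DMSO 24 were higher and 3 lower (26.3% and 25.3% of all genes, median 0.53). MAP1LC3B, the LC3B coat of autophagosomes, rose by 1.01 ± 0.09 within HDM201 and 1.10 ± 0.09 within DMSO. NPC1, the lysosomal cholesterol exporter, had 23.8, 23.4 and 27.1 CPM in IR_HDM201 libraries against 47.1, 41.9 and 35.4 CPM in Prolif_HDM201 libraries, a log2 fold change of -0.74 ± 0.12 without overlap, while it rose by 1.01 ± 0.11 within DMSO (difference -1.75 ± 0.16, adjusted p = 1.05e-07). CTSK, cathepsin K, also fell within HDM201 (-0.95 ± 0.11) and rose within DMSO (0.41 ± 0.11), and GUSB, beta-glucuronidase, fell by 1.02 ± 0.12 within HDM201 and fell by 0.79 ± 0.12 within DMSO. GLB1, whose lysosomal beta-galactosidase is stained as a senescence marker, was not called, at 76.8 ± 7.33 CPM in IR_HDM201 and 83 ± 13.7 CPM in Prolif_HDM201 (-0.11 ± 0.12, adjusted p = 0.454; without Prolif_HDM201 replicate 3 it was called lower, -0.27, adjusted p = 0.03).

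Genes of the stress responses fell in part. Of 26 genes of the integrated stress and unfolded protein responses, 15 (57.7%) were lower and 1 (3.85%) was higher (23.8% and 22.7% of all genes, median -0.54). PHGDH, the first enzyme of serine synthesis, averaged 41.3 ± 4.31 CPM in IR_HDM201 and 282 ± 43.3 CPM in Prolif_HDM201 (-2.77 ± 0.12), SLC7A5, a transporter of large neutral amino acids, fell by 2.59 ± 0.13, and DNAJB9, a chaperone of the endoplasmic reticulum, rose by 1.25 ± 0.18. Of 18 NRF2 targets, 7 (38.9%) were lower and 5 (27.8%) were higher. With library totals alone 6 were lower and 7 higher, so that the balance turned, where 3479 of all genes were lower and 5263 higher. Within DMSO 5 were lower and 9 higher (25.3% and 26.3% of all genes). In the difference 7 were called lower with HDM201 and 0 higher (5.67% and 2.97% of all genes). NQO1, a quinone reductase, had 27.9, 33.7 and 25.8 CPM in IR_HDM201 libraries against 104, 105 and 88.7 CPM in Prolif_HDM201 libraries, a log2 fold change of -1.77 ± 0.11 (adjusted p = 8.84e-12) without overlap, against -0.32 ± 0.11 within DMSO. HMOX1, heme oxygenase 1, fell by 1.22 ± 0.15 within HDM201 and rose by 0.55 ± 0.15 within DMSO, while FTL, the ferritin light chain, rose by 0.95 ± 0.14 and 1.45 ± 0.14. Immediate early and heat shock genes, which also respond to handling of cells, were lower for 13 of 20 (65%) and higher for 1 (5%, median -0.63). EGR1, a serum-response transcription factor, fell by 1.98 ± 0.15 within HDM201 and fell by 1.07 ± 0.14 within DMSO. FOS, the AP-1 subunit, fell by 2.73 ± 0.31 within HDM201, at 0.405 ± 0.146 CPM in IR_HDM201 and 2.47 ± 0.640 CPM in Prolif_HDM201, and IER3, an early-response survival gene, fell by 1.14 ± 0.13 within HDM201 and rose by 1.15 ± 0.12 within DMSO. Whether handling had a part in these values was not tested.

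Of 24 cholesterol synthesis genes, 8 (33.3%) were higher and 5 (20.8%) were lower, shares not far from the 22.7% and 23.8% of all genes (median 0.25). With library totals alone 13 were higher and 4 lower, where 5263 of all genes were higher and 3479 lower. MSMO1 and TM7SF2, enzymes of the late sterol pathway, rose by 1.52 ± 0.12 and 2.04 ± 0.22 within HDM201, and INSIG1, the sterol-sensing brake on this pathway, fell by 0.87 ± 0.14. Of 28 nuclear oxidative phosphorylation genes, 14 (50%) were higher and 2 (7.14%) were lower (median 0.28). Without Prolif_HDM201 replicate 3 they were 10 and 5, where 4327 of all genes were higher and 4827 lower. No difference between the arms was called, higher or lower (0 of 28 each). That depended on the processing, since alternatives called up to 8 higher and 0 lower. Without both HDM201 libraries that stood apart 3 were called higher, where 1142 of all genes were. NDUFA1, a small subunit of complex I, rose by 0.96 ± 0.19, and SDHA, the flavoprotein of complex II, fell by 0.49 ± 0.10.

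**Figure D4:**
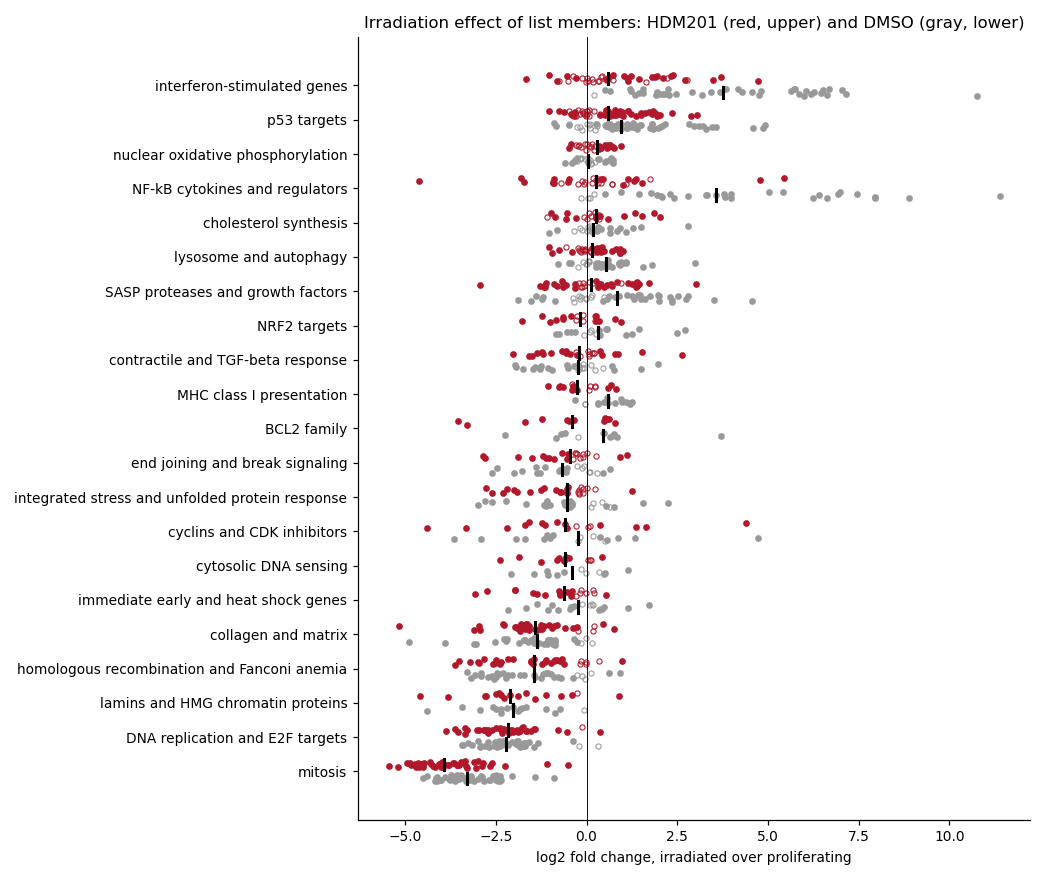
Log2 fold changes by irradiation of the tested members of 21 gene lists, within HDM201 (red, upper strip) and within DMSO (gray, lower strip). Filled points were called, open points were not, and the black bar is the median. The strips have medians of the same sign and share much of their range for mitosis, replication, lamins and matrix. Single differences were still called there, as for 13 of 45 mitosis genes (medians -3.91 with HDM201 and -3.30 with DMSO). The strips part for NF-kB genes (medians 0.27 with HDM201 and 3.57 with DMSO) and interferon-stimulated genes (0.59 and 3.75).

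Some of the largest changes among called protein-coding genes that averaged 1 CPM or more in either group, with no overlapping libraries, lay outside these lists. KCTD4, a potassium channel tetramerization domain protein (chr13:45192853-45201045), had 8.50, 8.96 and 10.7 CPM in IR_HDM201 libraries against 0.150, 0.267 and 0.0653 CPM in Prolif_HDM201 libraries (5.99 ± 0.36, adjusted p = 3.86e-12), with proliferating libraries at a small number of reads. ADAMTS19, a secreted metalloprotease (chr5:129460281-129738683), had 27.1, 22.7 and 23.4 CPM in IR_HDM201 libraries against 0.524, 0.381 and 0.653 CPM in Prolif_HDM201 libraries (5.50 ± 0.21, adjusted p = 1.14e-15), beside 5.34 ± 0.21 within DMSO. WNT7B, a WNT ligand (chr22:45920366-45977162), fell furthest, with 0.167, 0.0879 and 0.0889 CPM in IR_HDM201 libraries against 12.2, 9.98 and 9.43 CPM in Prolif_HDM201 libraries (-6.27 ± 0.24, adjusted p = 1.26e-15; -5.98 ± 0.21 within DMSO). A lack of overlap was a condition for choosing these 3 genes, so it is no support for them. None of their differences between the arms was called with edgeR (adjusted p = 0.49, 0.848 and 0.785).

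Across all genes the irradiation effect differed between HDM201 and DMSO for 1568 of 18151 genes (8.64%), with 539 (2.97%) higher and 1029 (5.67%) lower with HDM201. The total was 2943 without Prolif_HDM201 replicate 3 and 3081 without all 4 libraries that stood apart, and the share of these calls that were higher, 34.4%, was 15.7% with library totals alone. Of the 1568, 391 were smaller rises, 96 larger rises, 220 smaller falls and 197 larger falls with HDM201, and the effects had opposite signs in 441 that were higher with DMSO and 223 that were higher with HDM201. Opposite calls in the arms were made for 117 genes that fell within HDM201 and rose within DMSO and 44 that did the reverse. MAP3K7CL, a gene related to the kinase TAK1 by its C-terminal sequence, was among the clearest to rise with HDM201 and not with DMSO, at 109, 102 and 105 CPM in IR_HDM201 libraries against 28.2, 33.9 and 31.4 CPM in Prolif_HDM201 libraries, without overlap (1.76 ± 0.10, adjusted p = 1.33e-12). In DMSO its libraries overlapped (30.4 ± 2.03 CPM in IR_DMSO and 31.2 ± 2.97 CPM in Prolif_DMSO), and the difference was 1.79 ± 0.14 (adjusted p = 6.60e-09). It rose with RG7388 too, by 1.44 ± 0.10. ANO1, a calcium-activated chloride channel, had 64.5, 61.6 and 58.2 CPM in IR_HDM201 libraries and 61.3, 60.2 and 49.1 CPM in Prolif_HDM201 libraries, which overlapped (0.11 ± 0.11), and fell by 1.90 ± 0.12 within DMSO. NRXN3, a neurexin, was not called within HDM201 (0.13 ± 0.14) and fell by 2.22 ± 0.14 within DMSO. RGS4, an inhibitor of G protein signaling, fell by 0.52 ± 0.09 within HDM201 and fell by 1.84 ± 0.09 within DMSO, and AMIGO2, a cell adhesion protein, fell by 1.36 ± 0.10 and fell by 2.83 ± 0.10.

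The irradiation effect was also set beside that with RG7388, at its own dose. Within RG7388, 3858 genes (21.3%) were higher and 4135 (22.8%) lower in irradiated cells, and 99.1% of the genes called within HDM201 had the same sign there. No gene passed the test of the difference between the compounds in edgeR (0 higher and 0 lower, 0% of genes), with 685 genes (3.77%) at an unadjusted p under 0.05, and DESeq2 called 8 higher and 0 lower. A missed threshold does not show equal effects, and the intervals give the range left. For CDKN1A the effect was 1.49 with HDM201 and 1.5 with RG7388 (95% interval of the difference -0.32 to 0.31). For CXCL8 it was 1.00 with HDM201 and 0.66 with RG7388 (-0.10 to 0.78), and for IFI6 2.71 with HDM201 and 1.95 with RG7388 (-0.11 to 1.62), wide intervals both. Genes among the differences with the smallest p are given as values, none of them called. They were picked by p in this same test, so their unadjusted intervals exclude 0 by that choice. These intervals are therefore no evidence of a difference between the compounds. ASF1B, a histone chaperone, had an interval of 0.60 to 1.45. CENPM, a centromere protein, changed by -2.98 ± 0.18 with HDM201 and -4.29 ± 0.19 with RG7388 (95% interval of the difference 0.77 to 1.83, adjusted p = 0.201), BUB1B, a spindle checkpoint kinase, had an interval of 0.64 to 1.41, and KIF2C, a microtubule depolymerase, one of 0.59 to 1.49.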

How the data were processed

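Poly(A) RNA-seq libraries of 6 groups with 3 libraries each were grouped by their labels. The authors aligned reads to hg38 with STAR and deposited raw counts per gene made with HTSeq. They also deposited FPKM values (fragments per kilobase, scaled to library size) made with Cufflinks, which were used only in alternatives. Versions and the annotation release were not given in the sources used here. Blank FPKM cells mix zeros with failed estimates, so 1975 of the tested genes with a blank were left out there and 16176 kept.

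The count table was fitted with edgeR 4.0.16 in R 4.3.3, using filterByExpr by group (18151 of 60668 genes kept, 45 pseudoautosomal copies left out), TMM scaling and a robust quasi-likelihood fit to all 18 libraries with 1 mean per group (12 residual degrees of freedom). Calls were made at an adjusted p (Benjamini-Hochberg) below 0.05. Each standard error is the size of the log2 fold change over the root of F, and intervals are 95%. Coordinates are GENCODE release 44 (60295 IDs matched). Alternatives were DESeq2 1.42.0, limma 3.58.1 on log2 FPKM with pseudocounts of 1 and 0.1, other scalings, filters and thresholds, a replicate block, a fit to only the groups compared, and leaving out libraries.

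The comparison and the 25 gene lists were chosen with earlier results of these data known. Genes were named from a panel, the 8 largest rises and falls, up to 5 members per list by p, up to 3 called members against a list's direction, and the 6 smallest p per direction of each difference, of which the text gives a selection, and some of these genes are not reported here. The largest rises and falls, among them CCND2 and C3, were taken only from called genes without overlapping libraries. ISG15, ACTA2, RRM2B, ZMAT3, XPC, FOS, CXCL1, PLK2, TAGLN, ID3, BCL2A1 and MCL1 were added after their values were seen.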

Additional observations from a re-analysis of the deposited data

Results flagged for a closer look

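The results below drew attention because the irradiation effect with HDM201 differed from that with DMSO in the edgeR test of the difference itself (adjusted p under 0.05 over 18151 genes). This held for 66 of the 118 genes examined singly, 53 with a lower and 13 with a higher effect under HDM201. Over all genes it held for 8.64%, with 5.67% lower and 2.97% higher. The 118 genes were picked with earlier results known, some by their small p in this same test or after their values were seen. Their count therefore describes the choice of genes and is no evidence of a larger share. Values are differences of log2 fold changes, HDM201 minus DMSO.

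Among cytokine and NF-kB genes the differences were -8.72 for CXCL1, -7.24 for IL1B, -5.73 for IL1A, -5.24 for CXCL8, -4.84 for TNFAIP6, -4.27 for IL6, -3.31 for TNFAIP3, -2.66 for C3, -2.65 for SOD2, -1.93 for VCAM1, -1.78 for CCL2 and -0.77 for NFKB1. Among secreted proteases and growth factors they were -2.65 for MMP3, -2.55 for MMP10, -1.54 for WNT16 and -1.28 for SERPINB2. Interferon-related genes had -4.73 for CXCL10, -3.77 for IFI6, -3.12 for OAS3, -2.67 for ISG15, -1.34 for IRF1 and -0.96 for HLA-B.

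Among p53 targets the differences were -3.11 for GDF15, -1.98 for TNFRSF10C, -1.83 for BTG2, -1.58 for SPATA18, -1.52 for PLK2, -1.48 for CDKN1A, -1.18 for TRIM22, -0.73 for CD82, -0.66 for XPC and 0.92 for TNFRSF10D.

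Among cell-cycle genes they were -1.71 for KIF20A, -1.31 for BIRC5, -0.97 for TROAP, -0.95 for CDC20, -0.94 for CDKN2B, -0.87 for RRM2, -0.78 for CDK2, -0.78 for PLK1, -0.72 for TPX2 and -0.70 for TK1. The PLK1 call was lost without IR_HDM201 replicate 3 (-0.60, adjusted p = 0.063), IR_HDM201 replicate 2 (-0.75, 0.051), Prolif_HDM201 replicate 1 (-0.70, 0.057) or 2 (-0.71, 0.055), or Prolif_DMSO replicate 1 (-0.72, 0.057).

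Stress, lysosome and early-response genes had -3.12 for FOS, -2.29 for IER3, -0.91 for EGR1, -1.77 for HMOX1, -1.44 for NQO1, -1.75 for NPC1, -1.36 for CTSK and -1.06 for INSIG1, and the remaining lower effects were -7.26 for BCL2A1, -3.11 for VWA5A, -1.50 for ID1 and -1.41 for ID3. Higher effects with HDM201 were 2.34 for NRXN3, 2.01 for ANO1, 1.79 for MAP3K7CL, 1.48 for AMIGO2, 1.40 for ACTA2, 1.32 for RGS4, 1.25 for XRCC4, 1.17 for TAGLN, 0.99 for HMGA2, 0.96 for ELN, 0.91 for LOX and 0.80 for DCN.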

How the results depend on the processing

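Alternatives were tried 1 at a time, and the cause of a changed value was not tested. For irradiation within HDM201 the calls stayed within 1.5 times (4124 higher, 4312 lower), except for a 2-fold minimum (1541 higher, 1696 lower) and for limma on log2 FPKM, which tests fewer genes (2860 lower with a pseudocount of 1, 2755 with a filter). Leaving out 1 library gave 3486 to 4327 higher and 3813 to 4827 lower. Library totals alone and limma turned the share of higher calls to 60.2% and to between 62.4% and 62.6%, from 48.9%. For the difference from DMSO (539 higher, 1029 lower) the calls were 233 and 585 at an adjusted p under 0.01, 135 and 634 with a 2-fold minimum, and 322 and 1735 with library totals alone. Higher calls were 282 when fitting only the groups compared, and 240, 218 and 232 with limma (pseudocounts 1 and 0.1, and the filter). Leaving out 1 library gave 336 higher (without Prolif_DMSO replicate 3) to 1408 (without Prolif_HDM201 replicate 3) and 791 to 1535 lower. Leaving out both HDM201 libraries that stood apart gave 1142 higher, and leaving out these with IR_DMSO replicate 1 and Prolif_DMSO replicate 1 gave 1467 higher and 1614 lower, both choices made after seeing the data. For the difference from RG7388 (0 and 0) DESeq2 called 8 higher, no filter 18 higher and 5 lower, and leaving out 1 library 0 to 7 higher. Same-numbered libraries had residual correlations of -0.157, 0.118 and -0.119, so numbers were not taken to pair them, and the replicate block gave 4139 higher and 4250 lower, and 538 and 985 for the difference from DMSO. In single genes the difference for WNT7B turned from -0.29 (not called) to 0.47 (called) with limma at a pseudocount of 1, with and without the filter, and the calls of MMP3 and CDKN2B within HDM201 were lost there (adjusted p up to 0.07 and 0.057), as was the difference for DCN (0.13).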

Other observations

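Noncoding genes were not described above. Of 2657 long noncoding RNA genes tested, 444 (16.7%) were higher and 243 (9.15%) lower in IR_HDM201 than in Prolif_HDM201, where 3538 (25.3%) and 3934 (28.2%) of 13972 protein-coding genes were. Of 698 processed pseudogenes, whose reads may belong to their parent genes, 22 (3.15%) were higher and 45 (6.45%) lower.

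SPATA18, a p53 target that takes part in mitochondrial quality control, averaged 38.2 ± 4.42 CPM in IR_HDM201 and 10.4 ± 0.665 CPM in Prolif_HDM201, and 38.7 ± 3.24 CPM in IR_DMSO and 3.53 ± 0.473 CPM in Prolif_DMSO (SD, n = 3 each). VWA5A had 10.7, 10.4 and 10.7 CPM in IR_HDM201 libraries against 13.8, 9.90 and 10.2 CPM in Prolif_HDM201 libraries, which overlapped (-0.09 ± 0.12, adjusted p = 0.583 with edgeR), and rose by 3.02 ± 0.13 within DMSO.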
